A study of Mus musculus with 12 samples.

Results

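Mouse kidney organoids were compared with the progenitor cultures from which such organoids are grown, across all genes that the arrays named singly. The comparison used 8 of the 12 arrays of the series. The 4 culture groups held 2 arrays each: progenitor cells derived from kidney cortex, progenitor cells derived from kidney medulla, and organoids derived from each of these regions. Progenitor cells had been isolated from mouse cortex and medulla and grown on fibroblast feeder cells, while organoids had been formed in 3D Matrigel, a basement membrane gel used for differentiation. RNA of the remaining 4 arrays came from whole cortex and medulla tissue, which entered the model only to estimate the spread between replicates. The labels name no allele, drug or dose for any group, give no time in culture and no strain, age or sex, and do not say whether feeder cells were removed before RNA was purified. The labels call the 2 arrays of a group biological replicates without saying which animal or culture each came from, so the p-values below measure the spread between these samples. Of 18193 genes with a probe set naming them alone, 11790 were tested, namely those whose signal exceeded the median of its array in both replicates of 1 or more of the 4 culture groups; this is the brightness filter referred to below.

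The nephron is a tube of epithelial cells whose successive segments, from proximal tubule through loop of Henle and distal tubule to collecting duct, each carry their own transporters. Adult tubule cells rarely divide, but in culture they can re-enter the cell cycle, and a change to a three-dimensional matrix gel can allow polarised cysts or tubule-like structures to form. Substrate stiffness and cell spreading act on the transcriptional co-activators YAP and TAZ and on serum response factor, which drive genes of proliferation, matrix and the contractile cytoskeleton.

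Libraries differed between the 2 stages in their technical controls. Poly-A controls, bacterial transcripts mixed into RNA before labelling, had median log2 signals of 7.03 to 7.37 on the progenitor arrays and of 1.21 to 1.88 on the organoid arrays. Hybridization controls, which enter after labelling, lay between 11.66 and 11.72 and between 12.44 and 12.81. The signal of the Gapdh control probe sets at the 3' end exceeded that at the 5' end by 0.867 to 1.67 log2 units in organoids, whereas in progenitor cells it lay below it by values from -0.405 to -0.298. For the beta-actin control probe sets the 3' minus 5' difference was 0.163 to 0.187 in progenitor cells and -0.0015 to 0.149 in organoids. Low poly-A controls and the organoid stage cannot be told apart in any result below. Replicates correlated across the tested genes with r from 0.935 in medulla organoids to 0.991 in cortex progenitor cells, and organoid with progenitor arrays with r from 0.725 to 0.736; genes are not independent, so these values only describe the arrays. The label of a renal epithelial culture was checked against marker genes: 7 of 7 epithelial markers (Epcam, Cdh1, Krt8, Krt18, Krt19, Cldn4 and Cldn7) and 3 of 3 measured renal lineage markers (Pax8, Emx2 and Cdh16) lay above the median on all 8 arrays. Endothelial markers lay there in 0 of 6 cases in either stage and nephron progenitor markers in 0 of 3. Fibroblast and feeder markers were above the median on all progenitor arrays in 9 of 13 cases and on all organoid arrays in 3 of 13.

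Organoids and progenitor cells differed in most of the genes measured. With limma and Benjamini-Hochberg adjustment over all genes tested, 9012 of 11790 genes (76.4%) passed an adjusted p of 0.05. Of these, 3527 were higher in organoids (29.9% of those tested) and 5485 were lower (46.5%). At least 2-fold differences were seen in 2062 genes upward (17.5%) and 3251 downward (27.6%), and 16-fold differences in 130 and 39. All 4 organoid arrays lay above all 4 progenitor arrays in 2930 genes (24.9%) and below them in 4693 (39.8%). A member that exceeded the array median in 1 stage alone could be tested only because it was high there, so counts and medians of lists rich in such members follow in part from the filter. Over all genes 9848 exceeded it in both stages, 1226 in progenitor cells alone and 716 in organoids alone; the same split and the median over members bright in both stages are given beside lists where under 80% were. With so large a share of genes called, the counts of each list below are to be read beside the 29.9% and 46.5% of all genes. Its median is to be read beside the median of all genes, which was -0.30 log2 units. Differences are organoid minus progenitor on the scale log2(signal + 15.2), the offset being the 25th percentile of all signals, so that a difference of a dim gene is smaller than its deposited log2 signals would give. That median depended on the scaling of the arrays: it was -0.39 after quantile normalization, -0.43 after scaling to the 75th percentile and -0.65 after scaling to the median, under which 2513 genes rose and 6650 fell. In bulk RNA, fewer cells of a type and less RNA per cell cannot be told apart, which holds for every fall and rise described.

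Different probe sets of a gene often disagreed in this comparison. Among 4552 called genes with at least 2 probe sets above the brightness filter, 1634 (35.9%) had all of them called the same way and 1717 (37.7%) had at least 1 called the opposite way. For the 716 genes with differences of at least 4-fold the shares were 57.3% and 21.6%. The brightest probe set, which stood for the gene, had a median difference of -0.19 in the 5898 genes with several bright probe sets, and the others had a median of 0.25. Whether this disagreement comes from the difference in technical controls named above was not tested. Of the 290 genes named below that passed, 140 had 1 bright probe set. Among the 150 others, 105 had all bright probe sets called the same way and 17 had some called the opposite way, which is said beside each. In the remaining 28 (Top2a, Tpm2, Htra1, Itga3, Sox11, Dach1, Ndufa5, Acot2, Hk1, Acss2, Dnajb4, Ddx10, Psmd7, Egfr, Jag2, Kitl, Sema3f, Aco1, Igf2bp1, Epcam, Sox9, Col1a1, Cldn1, Sdha, Sema3a, Smad7, Tgfa and Yap1) at least 1 other bright probe set did not pass, so their differences are those of the brightest probe set. The largest rises and falls were chosen from genes whose bright probe sets, at least 2 of them, all passed with the same sign. These genes also had to differ by at least 1 log2 unit in each region, in the same direction. All their organoid arrays had to lie on 1 side of all progenitor arrays, so their lack of overlap follows from the choice.

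The 15 largest rises of that kind were led by Pigr and spanned differences from 5.38 to 7.59 log2 units; 389 genes met the rule for rises and 358 that for falls. Log2 signals are given per array in the order cortex 1, cortex 2, medulla 1 and medulla 2. Pigr, the receptor that carries polymeric immunoglobulins across epithelial cells, had signals of 4.95, 5.40, 4.89 and 4.94 for progenitor cells against 13.36, 13.23, 13.14 and 13.00 for organoids. The organoid arrays lay far above the progenitor arrays, and the log2 difference, organoid minus progenitor, was 7.59 ± 0.14 (SE of the limma model, 4 arrays against 4, adjusted p = 7.03e-12). Ccl28, a chemokine of mucosal epithelia, had signals of 6.88, 6.68, 6.19 and 6.38 for progenitor cells against 13.24, 13.19, 12.89 and 12.86 for organoids, a difference of 6.29 ± 0.12. For Umod, the urinary protein uromodulin made in the thick ascending limb, they were 5.15, 4.22, 3.80 and 3.11 for progenitor cells against 11.30, 11.54, 10.74 and 10.75 for organoids, a difference of 6.05 ± 0.13. Both genes were lowest in progenitor cells of the medulla, and both were slightly higher in organoids of the cortex than of the medulla. Kap, an androgen-regulated protein of the proximal tubule, and Kng1, which encodes kininogen, differed by 5.99 ± 0.16 and 5.57 ± 0.13.

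Transporters were among the 15. The zinc and manganese importer Slc39a8 had signals of 6.37, 6.79, 7.18 and 6.94 for progenitor cells against 13.13, 13.17, 12.56 and 13.08 for organoids, a difference of 5.98 ± 0.15. Slc5a1, the sodium-glucose cotransporter SGLT1, had signals of 5.72, 5.31, 5.02 and 4.68 for progenitor cells against 11.39, 11.37, 11.30 and 10.97 for organoids, a difference of 5.57 ± 0.13. The amino acid transporter Slc6a14 (5.64 ± 0.31), the nucleoside transporter Slc28a3 (5.42 ± 0.29) and the metalloreductase Steap4 (5.81 ± 0.20) were also among them. Slc28a3 was the least even of these, with signals of 11.40 and 11.53 in cortex organoids and 8.89 and 9.15 in medulla organoids. Atp6v0d2, a subunit of the vacuolar proton pump, rose by 5.47 ± 0.23. Tshr, the thyrotropin receptor, had signals of 4.28, 2.79, 3.68 and 2.64 for progenitor cells against 11.53, 11.59, 10.31 and 10.48 for organoids, a difference of 6.29 ± 0.26. The remaining rises were in the ligand Tgfb2 (5.56 ± 0.15), the monoglyceride lipase Mgll (5.46 ± 0.20) and Sfi1, a centrosomal protein (5.38 ± 0.29).

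The 15 largest falls held growth factors and antagonists, a cadherin, matrix genes and genes of the cell nucleus. Pdgfb, a platelet-derived growth factor that acts on mesenchymal cells, had signals of 11.45, 11.09, 11.09 and 11.13 for progenitor cells against 4.34, 1.77, 2.04 and 2.02 for organoids, and its log2 difference of -6.73 ± 0.21 was the largest fall of these. Cdh2, the mesenchymal and neural N-cadherin, had signals of 13.10, 13.16, 13.04 and 12.73 for progenitor cells against 5.45, 5.49, 7.67 and 7.80 for organoids, a difference of -6.15 ± 0.13. Its signal was higher in medulla organoids than in cortex organoids, without overlap. Ankrd1, a much-used YAP target, had signals of 13.38, 13.32, 13.17 and 13.39 for progenitor cells against 8.84, 8.65, 8.90 and 8.89 for organoids, a difference of -4.45 ± 0.25. Lmnb1, lamin B1 of the nuclear envelope, had signals of 11.30, 11.37, 11.22 and 11.40 for progenitor cells against 6.99, 7.53, 6.45 and 5.42 for organoids, a difference of -4.50 ± 0.19. The transcriptional co-factor Eya4 (-5.73 ± 0.27), the microtubule regulator Stmn2 (-4.94 ± 0.27) and the guidance ligand Sema3e (-4.81 ± 0.17) followed Cdh2 in size. Fst, follistatin, which binds activins, fell by 4.17 ± 0.30, and Dpysl3, a cytoskeletal regulator of growing processes, by 4.05 ± 0.18. Fbln2 (-4.24 ± 0.19), Col3a1 (-4.12 ± 0.23), Col5a2 (-4.04 ± 0.21) and Ccdc80 (-4.42 ± 0.30) encode matrix proteins, while Cenpn (-4.24 ± 0.23), at the centromere, and Pclaf (-4.04 ± 0.20), which binds the replication clamp, belong to dividing cells.

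**Figure D1:**
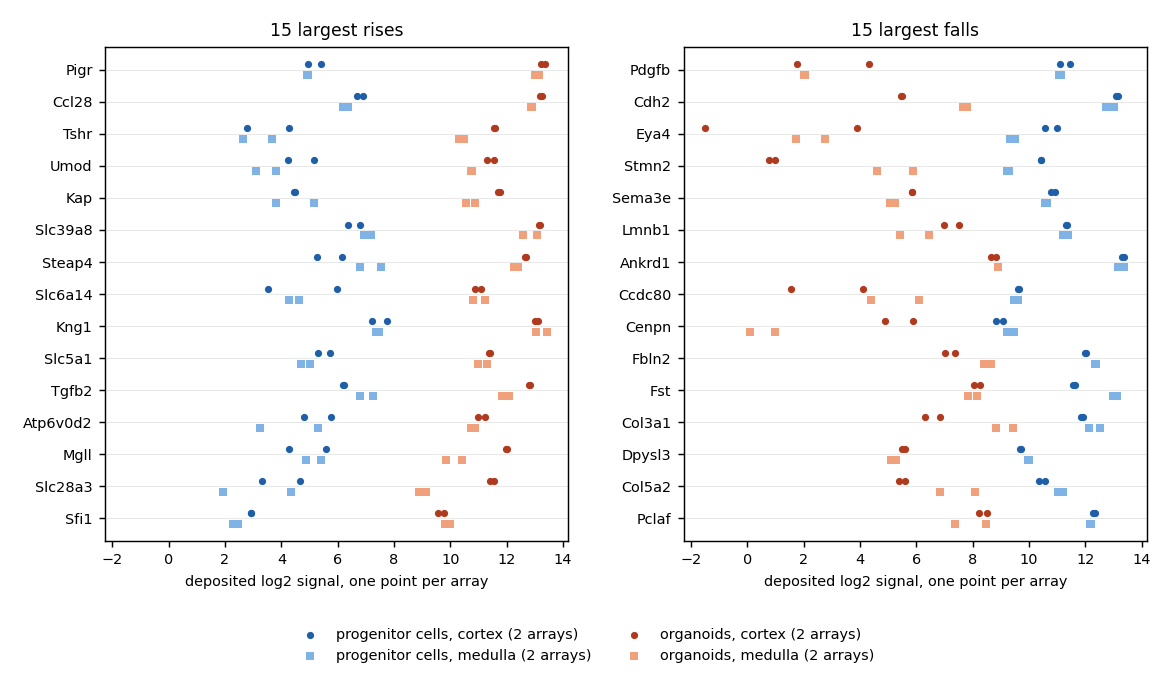
Deposited log2 signal (x axis) of the 15 largest rises and the 15 largest falls (rows), 1 point for each of the 8 culture arrays. By the rule of choice, all organoid points (red) lie right of all progenitor points (blue) on the left panel and left of them on the right panel. For Pigr the progenitor arrays lie between 4.89 and 5.40 and the organoid arrays between 13.00 and 13.36.

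Genes of mitosis fell together. Their promoters are shown first because dividing-cell genes share known elements near the start: a cell cycle gene homology region, TTTGAA, which is bound by the MuvB complex, and CCAAT boxes, which are bound by the factor NF-Y. The 2 mitosis genes with the largest falls among those holding both elements were chosen after their values were seen. Their 250 bases before the start are given as in RefSeq (build GRCm38.p6), for Top2a (chr11:99024190-99024439, minus strand), DNA topoisomerase II alpha, and Cdk1 (chr10:69352913-69353162, minus strand), the mitotic kinase, 5' to 3' on the gene's strand. Capitals mark each TTTGAA or CCAAT and their reverse complements TTCAAA and ATTGG.
Top2a: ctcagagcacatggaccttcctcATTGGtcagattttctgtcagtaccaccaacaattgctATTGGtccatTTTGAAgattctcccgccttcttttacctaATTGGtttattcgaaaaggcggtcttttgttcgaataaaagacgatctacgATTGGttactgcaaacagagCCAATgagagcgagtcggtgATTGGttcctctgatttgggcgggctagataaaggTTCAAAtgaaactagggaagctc
Cdk1: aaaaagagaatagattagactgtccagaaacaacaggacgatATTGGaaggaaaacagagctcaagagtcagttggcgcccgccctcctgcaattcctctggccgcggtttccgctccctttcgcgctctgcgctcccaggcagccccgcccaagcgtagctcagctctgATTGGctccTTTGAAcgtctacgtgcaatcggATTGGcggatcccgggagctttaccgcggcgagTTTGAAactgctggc
Cdk1 holds TTTGAA 71 and 15 bases before the start and Top2a holds it 179 and, reversed, 23 bases before. Of 30 mitosis genes that fell and had a promoter window (250 bases before to 50 after the start), 22 (73.3%) held TTTGAA on either strand, against 1101 of the 9547 tested genes with a window (11.5%). CCAAT was found in 23 (76.7%), against 38.7% of all, and the matches of the 2 motifs overlapped in 12 of the 9547 windows. The other tested mitosis genes, which did not fall, held each motif in 3 of 4 windows. Among DNA replication genes that fell, 2 of 20 windows (10%) held TTTGAA and 14 (70%) held CCAAT.

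Of 41 tested members, 1 rose and 35 fell, against 29.9% and 46.5% of all genes, and the list median was -2.18. In 35 members all organoid arrays lay below all progenitor arrays, against 39.8% of all genes. Bub1, a kinase of the spindle checkpoint, had signals of 10.88, 10.85, 10.79 and 10.68 for progenitor cells against 6.68, 6.25, 7.02 and 6.39 for organoids, a difference of -4.01 ± 0.23. Plk1, polo-like kinase 1, had signals of 10.43, 10.50, 10.48 and 10.40 for progenitor cells against 5.72, 6.59, 5.93 and 6.63 for organoids, a difference of -3.98 ± 0.22. Those of Top2a were 11.98, 11.85, 11.72 and 12.03 for progenitor cells against 8.33, 8.74, 8.0 and 8.14 for organoids, a difference of -3.53 ± 0.17, and those of Cdk1 11.25, 11.46, 11.41 and 11.53 for progenitor cells against 8.25, 8.38, 7.90 and 8.57 for organoids, a difference of -3.07 ± 0.26. In each of these genes the progenitor arrays lay close together and far above all organoid arrays. For Top2a this was called on 1 of 2 bright probe sets, and Cdk1 had 1. Anln, anillin of the cleavage furrow, fell by 3.95 ± 0.19. Mki67, the proliferation antigen Ki-67, moved less, with signals of 11.57, 11.63, 11.51 and 11.56 for progenitor cells against 10.50, 10.65, 10.90 and 10.29 for organoids and a difference of -0.98 ± 0.17. Pttg1, securin, was the member that rose (0.57 ± 0.12), on 3 of 3 bright probe sets. Of the 19 called members with several bright probe sets, 0 had a probe set called the opposite way and 12 had all called the same way. Averaged over the list, log2 signals were 10.38, 10.40, 10.32 and 10.36 on progenitor arrays and 8.24, 8.21, 8.20 and 8.14 on organoid arrays. Region made little difference to it, with medians of -2.12 for cortex and -2.38 for medulla.

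Genes of DNA replication followed less evenly. Of 34 tested members, 5 rose and 26 fell, with a median difference of -1.03. The DNA polymerase alpha subunit Pola1 (-2.83 ± 0.17), the replication initiator Mcm10 (-2.57 ± 0.21), the clamp loader subunit Rfc5 (-2.43 ± 0.32) and the helicase subunit Mcm3 (-2.36 ± 0.28) fell the most. Mcm3 had 4 bright probe sets that fell and 1 that rose, and in 7 of 18 called members with several bright probe sets some probe set was called the opposite way. Among cell cycle inhibitors and p53 targets, of 24 tested members, 6 rose and 13 fell (25% and 54.2%, against 29.9% and 46.5% of all genes). The inhibitors Cdkn2d (-3.38 ± 0.25), Cdkn2a (-2.84 ± 0.28) and Cdkn1c (-2.35 ± 0.34) and the stress kinase Plk2 (-2.67 ± 0.24) fell as well. Signals of Cdkn2a, a cell cycle inhibitor of cultured and senescent cells, were 11.86, 11.73, 12.18 and 12.21 for progenitor cells against 9.42, 8.48, 9.15 and 9.45 for organoids. The list median of -0.45 was near that of all genes. Oncofetal and stem cell genes were mixed: of 13 tested members, 5 rose and 8 fell, with the RNA-binding protein Igf2bp1 at -2.91 ± 0.24 and Mycn at 2.31 ± 0.17, though 1 of the 3 bright probe sets of Mycn fell. Cd34 fell by 2.07 ± 0.27, and the list median was -1.0.

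Among 23 tested YAP targets 15 fell and 6 rose, and among 12 tested contractile genes 11 fell and 1 rose. YAP acts through TEAD factors, whose element is GGAATG, and serum response factor, which drives many contractile genes, binds the CArG box. The bases before the start, likewise from RefSeq (GRCm38.p6) and chosen after values were seen, are shown for the 3 fallen YAP targets with the largest falls among those holding GGAATG there, Ankrd1 (chr19:36119845-36120094, minus strand), Amotl2 (chr9:102717554-102717803, plus strand), an angiomotin that restrains YAP, and Ccn1 (chr3:145649986-145650235, minus strand), a secreted matricellular protein. The muscle actin gene Acta1 (chr8:123894776-123895025, minus strand) is shown for its CArG box. Capitals mark GGAATG or its reverse complement CATTCC in the first 3 sequences and the CArG box in the last.
Ankrd1: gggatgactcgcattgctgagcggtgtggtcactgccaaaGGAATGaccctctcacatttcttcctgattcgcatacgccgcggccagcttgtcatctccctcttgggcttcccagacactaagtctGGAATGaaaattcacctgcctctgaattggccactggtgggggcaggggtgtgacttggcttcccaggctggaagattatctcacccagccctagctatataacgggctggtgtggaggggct
Amotl2: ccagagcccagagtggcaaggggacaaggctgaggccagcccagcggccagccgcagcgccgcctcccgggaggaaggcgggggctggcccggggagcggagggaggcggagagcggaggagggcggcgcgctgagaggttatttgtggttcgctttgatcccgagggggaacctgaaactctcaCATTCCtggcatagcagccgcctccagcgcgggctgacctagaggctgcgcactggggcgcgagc
Ccn1: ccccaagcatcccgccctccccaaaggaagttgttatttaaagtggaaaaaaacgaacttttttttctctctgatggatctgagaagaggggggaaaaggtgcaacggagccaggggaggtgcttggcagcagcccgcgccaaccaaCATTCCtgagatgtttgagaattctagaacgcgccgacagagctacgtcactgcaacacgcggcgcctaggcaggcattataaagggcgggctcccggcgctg
Acta1: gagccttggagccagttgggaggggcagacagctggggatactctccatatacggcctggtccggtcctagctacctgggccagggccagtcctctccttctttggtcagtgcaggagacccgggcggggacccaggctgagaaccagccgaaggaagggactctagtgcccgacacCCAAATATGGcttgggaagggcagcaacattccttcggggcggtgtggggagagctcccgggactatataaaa
The element lay 210 and 123 bases before the start in Ankrd1, 65 before it in Amotl2 and 103 before it in Ccn1, and the CArG box of Acta1 began 73 bases before the start. Of 11 YAP targets that fell and had a window, 8 (72.7%) held GGAATG on either strand, against 11.8% of all 9547 windows and 2 of the 5 other tested YAP targets. Of 9 contractile genes that fell and had a window, 5 (55.6%) held GGAATG and 3 (33.3%) a CArG box, which 1.24% of all windows held. The 2 motifs overlapped in 1 window.

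The median of the YAP target list was -1.32. Signals of Amotl2 were 12.83, 12.75, 12.70 and 12.74 for progenitor cells against 9.04, 9.38, 9.03 and 9.58 for organoids, a difference of -3.47 ± 0.14. Those of Ccn2, the connective tissue growth factor, were 14.58, 14.38, 14.46 and 14.60 for progenitor cells against 11.93, 12.06, 11.80 and 11.56 for organoids, a difference of -2.66 ± 0.17. Both genes had the 4 progenitor arrays close together and more than 2 log2 units above the organoid arrays. Ccn1 fell by 2.15 ± 0.15 on its brightest probe set, but 2 of its 4 bright probe sets rose. The paralogous co-activator gene Wwtr1, which encodes TAZ, fell by 1.82 ± 0.11 on 3 of 3 bright probe sets, whereas Yap1 itself differed by 0.31 ± 0.087 on 1 of 2 bright probe sets, a value that turned to -0.053 after scaling to the array median. Tgfb2, on the same list, was among the largest rises of all genes. The contractile list had a median of -2.45 over its 12 tested members, of 19 on the array. Acta1 had signals of 9.13, 9.31, 9.24 and 9.21 for progenitor cells against 1.33, 1.03, 2.66 and 1.30 for organoids, a difference of -5.05 ± 0.20. The smooth muscle actin gene Acta2 had signals of 10.73, 10.69, 11.80 and 11.92 for progenitor cells against 6.50, 5.24, 7.53 and 5.74 for organoids, a difference of -4.75 ± 0.34. The organoid arrays of both genes lay below all progenitor arrays, and those of Acta1 were among dim signals, where the offset sets the size of the difference. Tropomyosin 2, Tpm2 (-4.36 ± 0.36), and calponin 2, Cnn2 (-3.04 ± 0.18), followed, and the kinase gene Mylk rose by 1.91 ± 0.12 with probe sets called both ways (2 up and 1 down of 3). Of the tested contractile genes, 7 were bright in both stages, 0 in organoids alone and 5 in progenitor cells alone, and over the 7 bright in both stages the median was -2.19.

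Matrix and fibroblast genes were lower in organoids, with lower list medians in cultures from the cortex than in those from the medulla. In 7 collagens and 7 fibroblast genes the change itself differed between the regions at an adjusted p under 0.05 (limma), which 4.76% of all genes did. The progenitor cultures were grown on fibroblasts, and fibroblast markers are given with these results. Averaged over 13 fibroblast and feeder markers, the mean log2 signal was 8.11, 7.95, 8.31 and 8.15 on progenitor arrays and 5.08, 5.98, 7.81 and 7.81 on organoid arrays. Cortex organoids were lower than all other cultures, and medulla organoids lay within 1 log2 unit of their progenitor cells. What part fewer feeder cells had in the falls of matrix genes was not tested. Among collagens, of 19 tested members, 1 rose and 14 fell, with medians of -2.32 in cortex and -0.67 in medulla. Of the tested members, 14 were bright in both stages, 0 in organoids alone and 5 in progenitor cells alone, with a median of -1.33 over those bright in both. Col3a1, a fibrillar collagen of interstitial matrix, had signals of 11.94, 11.85, 12.14 and 12.52 for progenitor cells against 6.32, 6.86, 8.84 and 9.45 for organoids. Medulla organoids had higher signals than cortex organoids, and all organoid arrays lay below all progenitor arrays. Col6a3, a microfibrillar collagen, had signals of 10.65, 10.58, 10.64 and 10.85 for progenitor cells against 4.94, 5.76, 9.69 and 8.52 for organoids. Its changes were -4.81 ± 0.46 in cortex and -1.61 ± 0.46 in medulla, and they differed by 3.20 ± 0.65 (limma, adjusted p = 0.021). Col12a1 fell by 3.22 ± 0.24 on average. Col1a1, the main collagen of fibroblasts, rose instead (1.37 ± 0.12), on 1 of its 2 bright probe sets, with signals of 9.46, 9.56, 10.17 and 10.12 for progenitor cells against 10.49, 10.55, 12.03 and 11.78 for organoids. Its partner chain Col1a2 fell by 2.15 ± 0.24.

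Matrix glycoproteins and crosslinking enzymes moved alike: of 26 tested members, 3 rose and 19 fell, with medians of -1.56 in cortex and -0.73 in medulla. Fn1, fibronectin, had signals of 13.14, 13.02, 13.21 and 13.48 for progenitor cells against 9.63, 9.44, 10.56 and 11.25 for organoids, a difference of -2.98 ± 0.18. Fbln5 (-3.44 ± 0.28), for elastic fibres, and the adhesion-modulating Tnc (-3.32 ± 0.27) fell further. The broader list of fibroblast and feeder genes had medians of -2.02 in cortex and 0.18 in medulla; of 21 tested members, 2 rose and 13 fell. Of these, 16 were bright in both stages, 1 in organoids alone and 4 in progenitor cells alone, with a median of -0.85 over those bright in both. Cdh11, a mesenchymal cadherin, had signals of 9.39, 9.62, 10.44 and 10.24 for progenitor cells against 4.62, 5.12, 7.73 and 7.70 for organoids, a difference of -3.30 ± 0.28. Fap (-2.58 ± 0.29) and Tbx18 (-2.25 ± 0.34) fell from progenitor signals between 5.75 and 7.63 for Fap. Zeb2, which represses epithelial genes, rose by 1.73 ± 0.30 on its brightest probe set, though 1 of 3 bright probe sets fell. Vim, vimentin of mesenchymal and cultured cells, had signals of 11.23, 11.36, 12.03 and 11.61 for progenitor cells against 9.87, 10.18, 13.06 and 12.73 for organoids. Its mean difference of -0.094 ± 0.13 (adjusted p = 0.51, not passed) joined a cortex change of -1.26 ± 0.18 and a medulla change of 1.07 ± 0.18 on its brightest probe set. Of its other bright probe sets, 1 changed alike (-0.87 and 1.60) and 1 fell in both regions (-3.54 and -1.46), so the medulla rise did not hold over all probe sets. For Thy1 the changes were -2.20 ± 0.39 and 0.18 ± 0.39. Pdgfra, the platelet-derived growth factor receptor of fibroblasts, had signals of 7.18, 7.26, 7.19 and 7.43 for progenitor cells against 2.89, 5.40, 7.70 and 7.41 for organoids, with the cortex organoids lowest; its regional changes differed by 2.42 ± 0.80 (adjusted p = 0.108, not passed). Matrix proteases and inhibitors were mixed, with 22 tested members, of which 8 rose and 11 fell (36.4% and 50%, near the shares of all genes), a median of -0.40 and a mean of 0.10. Plau, urokinase, rose by 4.42 ± 0.18 on 2 of 2 bright probe sets and had signals of 8.05, 8.09, 7.93 and 8.46 for progenitor cells against 12.73, 12.55, 12.43 and 12.76 for organoids. The serine protease Htra1 rose by 3.19 ± 0.35 and Mmp24 by 2.45 ± 0.20, the latter with its other probe set falling, while the inhibitor Timp1 fell by 3.17 ± 0.31.

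Pan-epithelial genes stayed bright and were mostly lower in organoids. Averaged over the 7 epithelial markers, the mean log2 signal was 14.03, 13.89, 13.92 and 14.11 on progenitor arrays and 12.34, 12.27, 12.35 and 12.38 on organoid arrays. All organoid arrays lay below all progenitor arrays. Among keratins, of 11 tested members, 2 rose and 9 fell, with a median of -1.16. Of the tested members, 7 were bright in both stages, 1 in organoids alone and 3 in progenitor cells alone, with a median of -1.31 over those bright in both. Krt8 and Krt18, the paired keratins of simple epithelia, had differences of -1.75 ± 0.11 and -1.67 ± 0.11, and Krt19 of -1.31 ± 0.24. Signals of Krt8 were 14.93, 14.75, 14.82 and 15.17 for progenitor cells against 13.06, 12.89, 13.49 and 13.22 for organoids. Krt6a, a keratin of activated and wounded epithelium, fell by 3.97 ± 0.20 and Krt7 by 1.98 ± 0.094, whereas Krt23 rose by 2.40 ± 0.31. Among junction genes and cadherins, of 35 tested members, 9 rose and 21 fell, a median of -0.72. Epcam had signals of 13.20, 13.06, 13.09 and 13.33 for progenitor cells against 12.75, 12.65, 12.32 and 12.22 for organoids, a difference of -0.69 ± 0.17, and E-cadherin, Cdh1, of 13.82, 13.75, 13.80 and 13.45 for progenitor cells against 12.41, 12.34, 12.32 and 12.27 for organoids, a difference of -1.37 ± 0.12. Claudins, which set the permeability of tight junctions, went both ways. Cldn10 (4.54 ± 0.19), Cldn16 (3.52 ± 0.29), Cldn2 (3.29 ± 0.15) and Cldn8 (2.48 ± 0.18) rose. Cldn4 (-3.17 ± 0.16), Cldn1 (-2.17 ± 0.092), Cldn3 (-2.08 ± 0.11) and Cldn7 (-1.58 ± 0.14) fell.

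Adhesion to the matrix and surface differentiation were mixed. Integrins and laminins had 20 tested members, of which 8 rose and 9 fell, a median of -0.18. The collagen-binding integrins Itga2 (1.75 ± 0.31) and Itga1 (1.67 ± 0.13) rose, and the laminin-binding Itga3 (-2.16 ± 0.12) and Itga7 (-2.34 ± 0.25) fell. Genes of the cornified layer, which barrier epithelia use, had 14 tested members, of which 4 rose and 5 fell and a median of -0.18 (-0.13 over the 9 bright in both stages; 2 were bright in organoids alone and 3 in progenitor cells alone), with Ly6d (2.58 ± 0.38) and Sprr2f (1.84 ± 0.15) up and the transglutaminase Tgm1 (-3.28 ± 0.32) and Lce1a1 (-2.19 ± 0.23) down. Genes of the primary cilium, the sensory organelle whose defects cause cystic kidneys, had 27 tested members, of which 10 rose and 10 fell, a median of -0.22 and a mean of 0.040. Cys1, cystin, which is mutated in a mouse model of polycystic kidney disease, stood apart with signals of 6.48, 7.14, 7.51 and 7.31 for progenitor cells against 12.32, 12.05, 11.68 and 11.49 for organoids and a difference of 4.63 ± 0.14 on 2 of 2 bright probe sets. Among intraflagellar transport genes Ift81 (-2.45 ± 0.16) and Ift172 (-1.73 ± 0.16) fell, and Ift80 rose on its brightest probe set (1.45 ± 0.13) and fell on its other.

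Some genes of each tubule segment listed rose, and in each segment others fell or were too dim to test. In the proximal, loop and distal lists the medians over genes bright in both stages were far smaller than those over all tested members. Of 38 proximal tubule genes on the array 17 were tested, 10 rose and 4 fell, with a median of 1.66. Of the tested members, 6 were bright in both stages, 8 in organoids alone and 3 in progenitor cells alone, and of the 6 bright in both stages 2 rose and 1 fell, with a median of 0.18. Slc5a8, a sodium-coupled lactate transporter, had signals of 4.79, 5.10, 4.80 and 5.01 for progenitor cells against 11.84, 12.04, 12.21 and 12.18 for organoids, a difference of 6.56 ± 0.10. Anpep, an aminopeptidase of the brush border, had signals of 1.78, 2.58, 2.13 and 2.59 for progenitor cells against 8.89, 9.11, 10.71 and 10.34 for organoids, a difference of 5.46 ± 0.17. Medulla organoids had more of it than cortex organoids, and the regional changes differed by 1.46 ± 0.34 (adjusted p = 0.034). Slc5a2, the glucose cotransporter SGLT2, rose by 2.92 ± 0.28, and the cystine transporter subunit Slc3a1 by 4.26 ± 0.13. Cubilin, Cubn (-1.0 ± 0.23), its partner Amn (-1.21 ± 0.22) and the water channel Aqp1 (-0.76 ± 0.21) fell, Aqp1 in cortex cultures (-1.51 ± 0.30) and not in medulla cultures (-0.00071 ± 0.30). Lrp2, Hnf4a, Slc34a1, Slc22a6 and the remaining 17 untested proximal genes did not pass the brightness filter in any culture group.

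In the loop of Henle 11 of 19 genes on the array were tested, 6 rose and 3 fell, with a median of 0.90. Of these, 3 were bright in organoids alone, and of the 8 bright in both stages 3 rose and 3 fell, with a median of 0.29. Besides Umod, Kcnj1, the potassium channel of the thick ascending limb, rose by 3.42 ± 0.25 on 2 of 2 bright probe sets. Cldn16, which passes magnesium between cells, had signals of 3.04, 5.83, 7.27 and 7.21 for progenitor cells against 8.82, 8.26, 11.33 and 11 for organoids, a difference of 3.52 ± 0.29. Tmem52b had signals of 1.65, 4.59, 5.04 and 2.76 for progenitor cells against 6.81, 6.74, 10.87 and 10.90 for organoids, so that the medulla organoids held most of it; its changes were 2.22 ± 0.40 and 5.88 ± 0.40 in cortex and medulla and differed by 3.66 ± 0.57 (adjusted p = 0.00586). In distal and connecting tubule 13 of 21 genes were tested, 8 rose and 3 fell, with a median of 1.71. Of these, 4 were bright in organoids alone, and of the 9 bright in both stages 4 rose and 3 fell, with a median of 0.22. Several of these carry calcium. S100g, calbindin-D9k, had signals of 5.39, 5.03, 5.50 and 5.04 for progenitor cells against 13.48, 13.22, 13.67 and 13.08 for organoids, a difference of 7.63 ± 0.20. Trpv6, the apical calcium channel, had signals of 6.22, 3.35, 4.25 and 5.84 for progenitor cells against 11, 11.20, 9.61 and 9.76 for organoids, a difference of 4.81 ± 0.38. Calb1, calbindin-D28k, had signals of 3.40, 3.91, 4.56 and 4.40 for progenitor cells against 7.21, 6.51, 9.95 and 10.18 for organoids, a difference of 3.55 ± 0.17, and rose more in medulla than in cortex cultures (2.62 ± 0.34, adjusted p = 0.00276). Klk1, tissue kallikrein, rose by 4.43 ± 0.30 on 4 of 4 bright probe sets.

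In the collecting duct, principal cell genes had 16 tested members, of which 9 rose and 4 fell and a median of 0.77, also over the 12 bright in both stages (2 were bright in each stage alone). The sodium channel subunit Scnn1b (2.27 ± 0.30) and the glucocorticoid-inactivating enzyme Hsd11b2 (1.62 ± 0.22) rose, and the epithelial factor Elf3 (-1.61 ± 0.21) and the vasopressin receptor Avpr2 (-0.94 ± 0.27) fell. Pde10a fell on its brightest probe set (-2.05 ± 0.25) and rose on another. Aqp2 and Aqp3 were among the 6 of 22 genes that were not tested. Intercalated cell genes had 13 tested members, of which 8 rose and 3 fell, and a median of 0.42, also over the 5 bright in both stages. In organoids alone 4 were bright, and 4 in progenitor cells alone. Slc26a4, pendrin, the apical anion exchanger of beta-intercalated cells, had signals of 5.21, 4.69, 5.36 and 5.80 for progenitor cells against 12.08, 12.18, 11.06 and 10.73 for organoids, a difference of 5.76 ± 0.20. Atp6v0a4 (1.98 ± 0.22) belongs to the same proton pump as Atp6v0d2. Foxi1, Slc4a1 and Atp6v1b1, which define these cells, were too dim to test, and the receptor gene Kit fell by 1.98 ± 0.24.

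Renal transcription factors were divided, with 30 tested members, of which 15 rose and 12 fell. Their median was 0.34 and their mean -0.082. Of the tested members, 18 were bright in both stages, 4 in organoids alone and 8 in progenitor cells alone, with a median of 0.75 over those bright in both. Hoxd11, needed with its paralogues for kidney formation, had signals of 2.46, 4.82, 2.34 and 4.70 for progenitor cells against 10.49, 9.28, 8.63 and 10.24 for organoids, a difference of 4.81 ± 0.43. Esrrg (2.59 ± 0.18), an orphan receptor of tubule cells, Hnf4g (1.92 ± 0.28), Sall1 (1.66 ± 0.15), Tfap2a (1.66 ± 0.11) and Pou3f3 (1.24 ± 0.12) rose as well. Pax8, which marks the renal epithelial lineage, had signals of 11.23, 11.32, 11.40 and 11.60 for progenitor cells against 12.01, 11.75, 12.48 and 12.21 for organoids, a difference of 0.72 ± 0.11 on 2 of 2 bright probe sets. Of factors of the embryonic kidney, Six2 (-2.09 ± 0.26), Osr1 (-2.44 ± 0.48), Lhx1 (-1.97 ± 0.23) and Eya1 (-1.17 ± 0.39) fell, whereas Hoxd11 and Sall1 rose. Six2 and Osr1 lay above the array median on 2 and 3 progenitor arrays and on 0 organoid arrays. They could thus be tested only because they were high in progenitor cells. Hoxd11 lay below the array median on all progenitor arrays and could be tested only because it was high in organoids. Eya1 passed in neither region alone. Osr1 had signals of 8.25, 8.25, 6.87 and 4.34 for progenitor cells against 3.32, 1.57, 2.54 and 5.44 for organoids, and within a region its fall passed in cortex cultures (-3.90 ± 0.68) and not in medulla cultures (-0.97 ± 0.68). Signals of Six2 were 5.75, 5.73, 5.97 and 6.43 for progenitor cells against -0.87, 0.93, 3.37 and 0.44 for organoids. Sox11 had signals of 11.98, 11.93, 11.84 and 11.75 for progenitor cells against 8.33, 8.83, 6.56 and 8.37 for organoids, a difference of -3.76 ± 0.32, on 5 of 6 bright probe sets. Sox9, which marks cells that repair the tubule, rose by 1.05 ± 0.29 on 1 of 2 bright probe sets. Pax2 was not analysed here, and Wt1 and Cited1 were too dim to test.

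Genes of tubular progenitors and injury had 24 tested members, of which 8 rose and 12 fell (33.3% and 50%, near the shares of all genes). All 24 tested passed the brightness filter in both stages. The median was -0.19, and 0.024 after quantile normalization. Anxa3 (-2.99 ± 0.11), the TWEAK receptor Tnfrsf12a (-2.85 ± 0.18) and the hyaluronan receptor Cd44 (-2.42 ± 0.10) fell. Cd44 had signals of 12.91, 12.97, 12.90 and 12.67 for progenitor cells against 10.17, 10.14, 10.73 and 10.66 for organoids, and its 3 bright probe sets agreed. The surface markers used to sort human renal progenitors fell on their brightest probe sets. Prom1, CD133, had signals of 14.77, 14.51, 14.44 and 14.88 for progenitor cells against 13.77, 13.55, 13.70 and 13.34 for organoids, a difference of -1.06 ± 0.12 on 1 bright probe set. Cd24a had a difference of -0.74 ± 0.13, but of its 3 bright probe sets 1 fell and 1 rose. Its difference turned to 0.052 after quantile normalization and 0.17 over the mean of its probe sets. Aldh1a1, an enzyme of retinoic acid synthesis, rose by 2.15 ± 0.20. Havcr1, kidney injury molecule 1, was at 0.16 ± 0.17 (adjusted p = 0.405). Podocyte genes had 11 tested members, of which 4 rose and 6 fell, and a median of -0.43. Over the 8 bright in both stages it was -0.95, and 2 were bright in organoids alone and 1 in progenitor cells alone. Dach1 (3.89 ± 0.25) and Clic5 (2.63 ± 0.26) rose, and Vegfa (-3.10 ± 0.17) and the intermediate filament gene Nes (-2.68 ± 0.19) fell. Nphs1, nephrin, was too dim to test. Of 20 endothelial genes 6 were tested, 0 rose and 4 fell with a median of -0.78, although 3 of the 6 were bright in progenitor cells alone and the median of the other 3 was 0.19; the falls were led by Sox17 (-1.58 ± 0.16) and Esam (-1.34 ± 0.27), and Pecam1 and Kdr were too dim. Of 9 tested immune cell genes 4 rose and 3 fell, with a median of 0.40. Among them 2 were bright in organoids alone and 3 in progenitor cells alone. Of the 4 bright in both stages 3 rose and 0 fell, with a median of 1.36. Ptprc, the leukocyte antigen CD45, had signals of 5.66, 6.12, 5.81 and 5.85 for progenitor cells against 9.32, 9.31, 9.06 and 9.68 for organoids on 1 bright probe set, a difference of 3.18 ± 0.19. Averaged over 6 leukocyte markers the mean log2 signal was 4.50, 4.66, 5.18 and 5.17 on progenitor arrays and 5.62, 4.86, 5.76 and 6.38 on organoid arrays, and the stages overlapped. Csf1r rose by 1.70 ± 0.15 with its probe sets divided, and Adgre1 (-1.56 ± 0.23) and H2-Eb1 (-1.72 ± 0.27) fell.

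Genes of secreted defence and the acute phase had a median of 3.60, with 3.62 in cortex and 4.10 in medulla. Of 41 such genes on the array 29 were tested, 25 rose and 2 fell. As 18 of the 29 were bright in organoids alone, the count and the median follow in part from the filter; of the 11 bright in both stages 7 rose and 2 fell, with a median of 3.30. All 7 called members with several bright probe sets had them agree. S100a8 and S100a9 form calprotectin, a metal-binding antimicrobial complex of myeloid cells and stressed epithelia. S100a8 had signals of 4.86, 5.17, 5.92 and 6.08 for progenitor cells against 13.71, 13.52, 13.62 and 13.37 for organoids, a difference of 7.62 ± 0.15, and S100a9 of 1.93, 2.73, 1.36 and 0.68 for progenitor cells against 12.05, 12.10, 11.32 and 11.48 for organoids, a difference of 7.52 ± 0.29. Chil4, a chitinase-like protein, had signals of 5.59, 3.35, 3.10 and 5.02 for progenitor cells against 13.10, 13.01, 13.29 and 12.98 for organoids, a difference of 7.90 ± 0.33. Chil1 (6.68 ± 0.33) and Chil3 (6.13 ± 0.27) are of the same family; close paralogues may share signal. Complement factor B, Cfb (6.64 ± 0.28), haptoglobin, Hp (5.97 ± 0.25), the peptidoglycan receptor Pglyrp1 (5.80 ± 0.26), beta-defensin 1, Defb1 (4.88 ± 0.088), the mucin Muc4 (4.27 ± 0.18) and lactotransferrin, Ltf (3.74 ± 0.20), rose with them. Lcn2, the injury marker NGAL (-0.79 ± 0.27), and Wfdc2 (-0.57 ± 0.11) fell from very bright signals, and after quantile normalization neither fall passed and Wfdc2 was at 0.014. Mean log2 signals of the list were 6.05, 6.30, 6.32 and 6.45 on progenitor arrays and 10.61, 10.48, 11.02 and 10.83 on organoid arrays. Their lack of overlap likewise follows in part from the filter. In the promoter windows of 20 risen members the NF-kappaB element GGGANNNNCC was found in 5 (25%), against 26.7% of all windows.

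Chemokines and cytokines rose in 15 and fell in 10 of 29 tested genes, with a median of 0.59, also over the 21 bright in both stages (4 were bright in each stage alone). Il1rn, the natural antagonist of the interleukin-1 receptor, had signals of 7.32, 7.65, 7.85 and 7.90 for progenitor cells against 11.01, 11.23, 11.41 and 10.98 for organoids, a difference of 3.38 ± 0.18, on 3 of 3 bright probe sets. The chemokines Cxcl17 (2.83 ± 0.30), Ccl20 (2.41 ± 0.14) and Cxcl14 (2.31 ± 0.27) and the growth factor Csf1 (1.88 ± 0.13) rose. Il11, a cytokine of the interleukin-6 family, had signals of 9.59, 9.72, 11.04 and 10.85 for progenitor cells against 5.81, 3.52, 4.97 and 6.11 for organoids, a difference of -4.61 ± 0.37. Il34 (-3.23 ± 0.24), Il6 (-3.06 ± 0.30) and Cxcl12 (-1.71 ± 0.24), products of stromal as well as epithelial cells, fell too. Interferon response and antigen presentation genes had 35 tested members, of which 8 rose and 18 fell (22.9% and 51.4%) and a median of -0.37, near that of all genes. Usp18 (-3.12 ± 0.25), Irgm1 (-2.38 ± 0.14) and the master factor Irf7 (-2.13 ± 0.21) fell, and Ifitm1 (2.81 ± 0.33) rose.

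**Figure D2:**
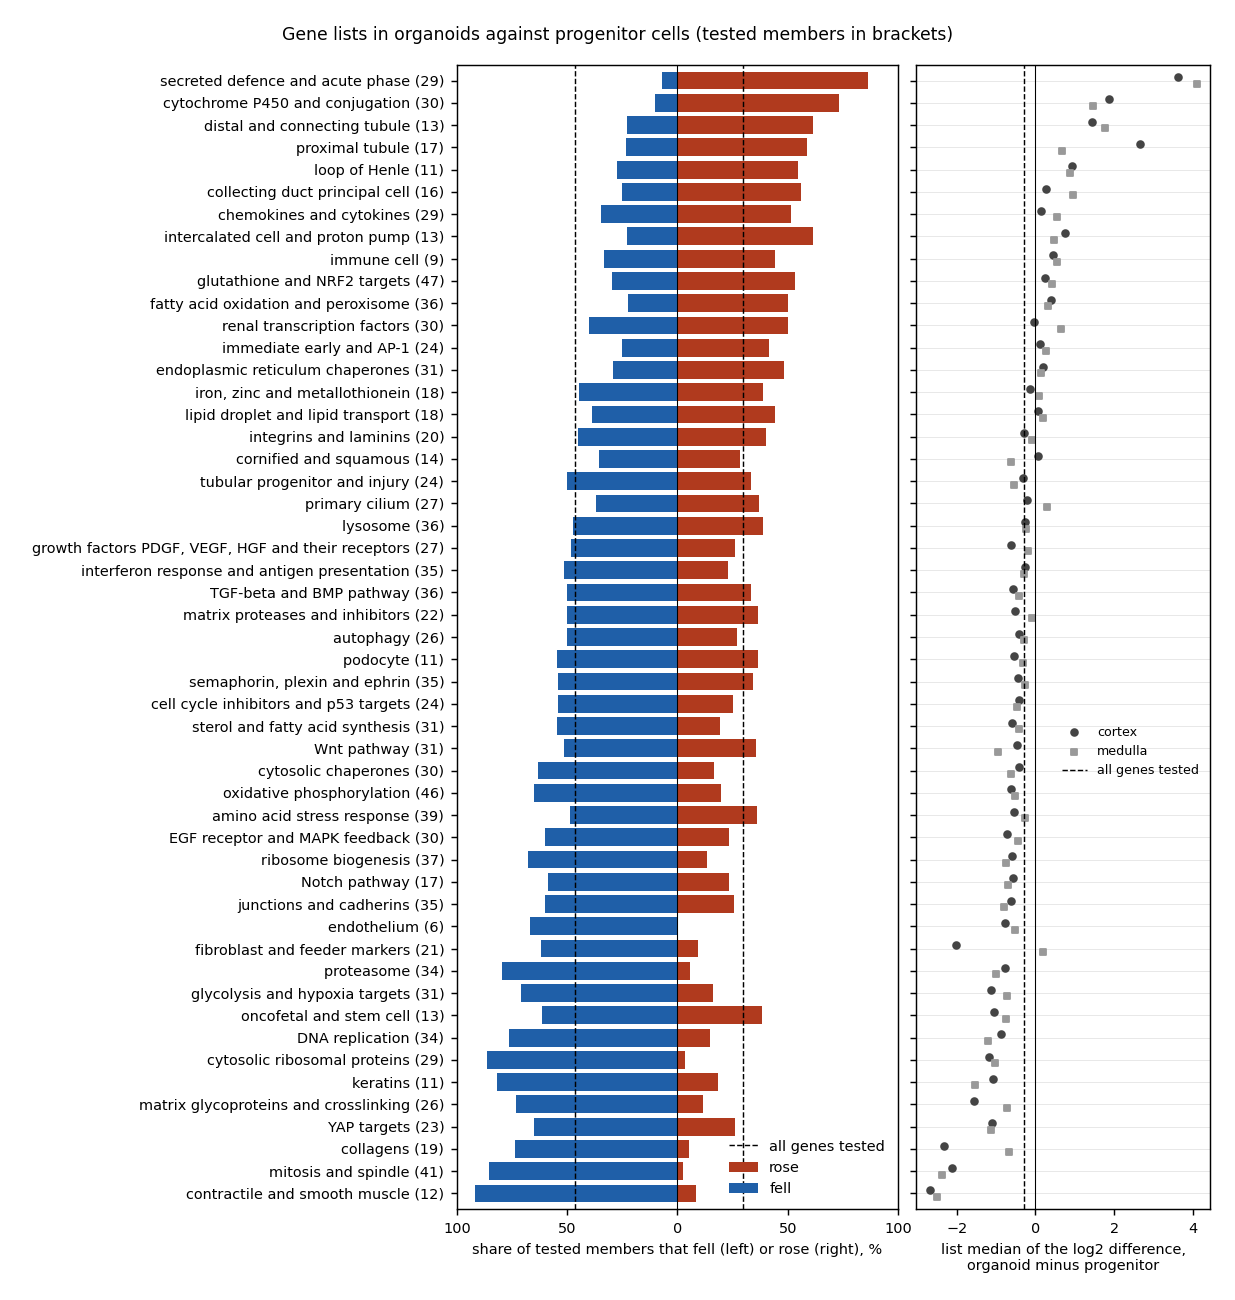
Left, share of the tested members of each of 51 gene lists that fell (blue) or rose (red) at an adjusted p under 0.05, with the shares over all genes tested as dashed lines (46.5% and 29.9%); right, list median of the log2 difference in cortex (circles) and medulla (squares) cultures, with that of all genes dashed (-0.30). Members bright in 1 stage alone are included, 18 of 29 for secreted defence genes, which stand at one end with 25 up, and mitosis genes near the other, with 35 of 41 down; the fibroblast list is split by region.

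Drug and steroid metabolism had a median of 2.06. Of 30 tested members, 22 rose and 3 fell. As 12 of the 30 were bright in organoids alone, both follow in part from the filter; of the 17 bright in both stages 11 rose and 2 fell, with a median of 1.52. Akr1c18, which inactivates progesterone, had signals of 5.88, 5.72, 6.38 and 6.45 for progenitor cells against 13.35, 13.24, 13.35 and 12.92 for organoids, a difference of 6.82 ± 0.15. The carboxylesterase Ces1d (4.97 ± 0.19), the glucuronosyltransferase Ugt2b34 (4.40 ± 0.20) and the flavin monooxygenase Fmo2 (4.21 ± 0.25) had 3, 2 and 4 bright probe sets that agreed. Cyp1a1 (4.16 ± 0.27) and Cyp1b1 (1.97 ± 0.29), targets of the aryl hydrocarbon receptor, rose while the receptor gene Ahr was at -0.26 ± 0.16 (adjusted p = 0.171, not passed; 1.24 over the mean of its probe sets). Glutathione and NRF2 target genes had 47 tested members, of which 25 rose and 14 fell and a median of 0.37. The cystine importer Slc7a11 had signals of 7.33, 7.44, 7.03 and 7.02 for progenitor cells against 10.85, 10.68, 10.23 and 10.94 for organoids, a difference of 3.34 ± 0.21. The transferases Gstt1 (3.61 ± 0.17) and Gsta4 (2.74 ± 0.14), the plasma peroxidase Gpx3 (3.03 ± 0.14) and the quinone reductase Nqo1 (1.90 ± 0.19) rose, and the intracellular peroxidases Gpx1 (-1.08 ± 0.11) and Gpx4 (-1.10 ± 0.13) fell. In windows of the risen members CCAAT was found in 15 of 21 (71.4%) and in those of the other members in 6 of 20 (30%), against 38.7% of all windows. The antioxidant response core TGANNNNGC was found in 10 of those 21 (47.6%), against 43.1% of all, and the AP-1 element TGANTCA in 1, against 5.05%.

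Energy metabolism was divided by pathway. Fatty acid oxidation and peroxisomal genes had 36 tested members, of which 18 rose and 8 fell, a median of 0.35 that fell to -0.0038 after scaling to the array median, when that of all genes was -0.65. Ppargc1a, the co-activator of mitochondrial biogenesis, had signals of 4.93, 4.90, 5.85 and 5.66 for progenitor cells against 9.82, 9.69, 10.19 and 10.79 for organoids, a difference of 4.34 ± 0.16, and its 5 bright probe sets agreed. Pdk4, which spares glucose by blocking pyruvate dehydrogenase, had signals of 5.78, 6.16, 6.03 and 5.75 for progenitor cells against 9.17, 8.78, 10.56 and 10.15 for organoids, a difference of 3.44 ± 0.17. The peroxisomal thiolase Acaa1b (3.22 ± 0.26), the thioesterase Acot2 (3.44 ± 0.093) and the carnitine transferase Cpt1a (1.37 ± 0.11) rose. Glycolysis and hypoxia targets had 31 tested members, of which 5 rose and 22 fell and a median of -0.95. The hexokinase Hk1 (-2.24 ± 0.12), triosephosphate isomerase, Tpi1 (-2.03 ± 0.077), lactate dehydrogenase, Ldha (-1.35 ± 0.10), and Vegfa, whose signals were 10.26, 10.26, 10.35 and 10.28 for progenitor cells against 6.61, 6.75, 6.91 and 7.90 for organoids, fell. The oxygen sensor Egln3 rose by 2.20 ± 0.23, and Adm rose by 3.20 ± 0.14 on the brightest of 2 probe sets called opposite ways. Oxidative phosphorylation genes, all 46 bright in both stages, had 46 tested members, of which 9 rose and 30 fell and a median of -0.51. Uqcrc1 (-2.45 ± 0.10), Uqcrfs1 (-1.96 ± 0.075) and Atp5pb (-1.80 ± 0.077) fell and Ndufa5 (1.74 ± 0.093) and Sdha (1.71 ± 0.080) rose. In 13 of 25 called members with several bright probe sets some probe set was called the opposite way, and after quantile normalization the list median of -0.40 met the -0.39 of all genes.

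Sterol and fatty acid synthesis had 31 tested members, of which 6 rose and 17 fell and a median of -0.45, with Fdps, which makes farnesyl pyrophosphate (-3.41 ± 0.12), and Ebp (-2.0 ± 0.14) down and the acetate ligase Acss2 (2.50 ± 0.26) up; Msmo1 fell on its brightest probe set (-2.09 ± 0.12) and rose on the other. Lipid droplet and lipid transport genes had 18 tested members, of which 8 rose and 7 fell, a median of -0.10 and a mean of 0.12. Fabp4, a fatty acid carrier of fat and endothelial cells, had signals of 4.73, 4.56, 3.94 and 5.42 for progenitor cells against 10.26, 10.82, 10.21 and 10.33 for organoids, a difference of 5.06 ± 0.21, while the droplet coat Plin2 (-1.82 ± 0.12) and the lipase inhibitor Angptl4 (-2.25 ± 0.18) fell and the cholesterol exporter Abca1 (1.82 ± 0.13) rose. Genes of iron, zinc and metallothionein had 18 tested members, of which 7 rose and 8 fell and a median of -0.00098 with a mean of 0.65; the median became 0.32 after quantile normalization. Beside Slc39a8 and Steap4, the zinc exporter Slc30a1 (2.92 ± 0.10) and the iron importer Slc11a2 (2.15 ± 0.14) rose, and Aco1, the iron regulatory protein 1 (-2.21 ± 0.10), and the metallothionein Mt1 (-1.11 ± 0.13) fell.

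Genes of protein synthesis were lower on the array scale used. Cytosolic ribosomal proteins had 29 tested members, of which 1 rose and 25 fell, a median of -1.10. After quantile normalization that median was -0.44, close to the -0.39 of all genes, so the gap to other genes seen on the main scale was not seen on that one. Signals of Rps19 were 14.44, 14.27, 14.23 and 14.53 for progenitor cells against 12.36, 12.19, 12.93 and 12.29 for organoids, a difference of -1.92 ± 0.13, and Rpl8 (-1.66 ± 0.13) and Rpl7 (-1.60 ± 0.094) fell alike. Rpl37 was listed far lower (-6.41 ± 0.18) on 1 bright probe set. Ribosome biogenesis had 37 tested members, of which 5 rose and 25 fell and a median of -0.68, with Rrp9 (-2.13 ± 0.28) and Ddx10 (-1.89 ± 0.12) among the falls; Nop16 fell (-1.98 ± 0.12) with its other probe set rising, and Npm1, nucleophosmin (-1.98 ± 0.12), turned to 0.40 after quantile normalization. Proteasome genes had 34 tested members, of which 2 rose and 27 fell and a median of -0.91. Psma1 had signals of 13.16, 13.12, 13.14 and 12.93 for progenitor cells against 10.93, 10.94, 11.03 and 10.72 for organoids, a difference of -2.17 ± 0.10, and Psmb7 (-2.04 ± 0.18) and Psma4 (-1.73 ± 0.10) followed. Psmd7 fell by 1.56 ± 0.14 on 1 of 2 bright probe sets, and its probe sets averaged 0.35.

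Chaperones are given by compartment. Endoplasmic reticulum chaperones and secretory factors had 31 tested members, of which 15 rose and 9 fell, a median of 0.17 and of -0.19 after scaling to the array median. Hyou1, a chaperone of the reticulum, had signals of 10.30, 10.26, 10.40 and 10.41 for progenitor cells against 12.45, 12.38, 12.90 and 12.97 for organoids, a difference of 2.32 ± 0.10. The oxidase Ero1b (3.10 ± 0.12), Dnajb11 (2.01 ± 0.10) and Creld2 (1.74 ± 0.12) rose, but Hspa5, the main Hsp70 of the compartment, fell (-1.17 ± 0.085) on 3 of 3 bright probe sets. Cytosolic chaperones had 30 tested members, of which 5 rose and 19 fell and a median of -0.50, or -0.17 after quantile normalization. Hspb1 (-2.52 ± 0.21) and Hsp90aa1 (-1.98 ± 0.093) fell with Bag3 (-1.67 ± 0.20), and Dnajb4 (1.84 ± 0.11) rose. Lysosomal genes had 36 tested members, of which 14 rose and 17 fell (38.9% and 47.2%), and a median of -0.33. The thioesterase Ppt1 (2.79 ± 0.11), on 4 of 4 bright probe sets, Ctsf (1.99 ± 0.26) and Hexa (1.86 ± 0.19) rose, and Ctsz (-3.14 ± 0.19) fell with 1 of 3 bright probe sets rising. Autophagy genes had 26 tested members, of which 7 rose and 13 fell (26.9% and 50%, near the 29.9% and 46.5% of all genes). Their median was -0.41, with Gabarapl1 (2.34 ± 0.11) up and Atg5 (-1.43 ± 0.23) down. Becn1 (-1.09 ± 0.12) fell with divided probe sets. Atg16l1 fell by 1.02 ± 0.17 on its only bright probe set, against 0.37 over the mean of all its probe sets. The amino acid stress response had 39 tested members, of which 14 rose and 19 fell (35.9% and 48.7%, near the shares of all genes), a median of -0.55. The secreted Stc2 had signals of 8.69, 8.70, 7.95 and 8.26 for progenitor cells against 12.63, 12.58, 12.70 and 12.50 for organoids, a difference of 4.14 ± 0.25, while Chac1, which degrades glutathione (-2.85 ± 0.17), the folate enzyme Mthfd2 (-2.70 ± 0.15) and asparagine synthetase, Asns (-1.26 ± 0.14), fell and Slc1a4 rose (3.12 ± 0.18) with divided probe sets.

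**Figure D3:**
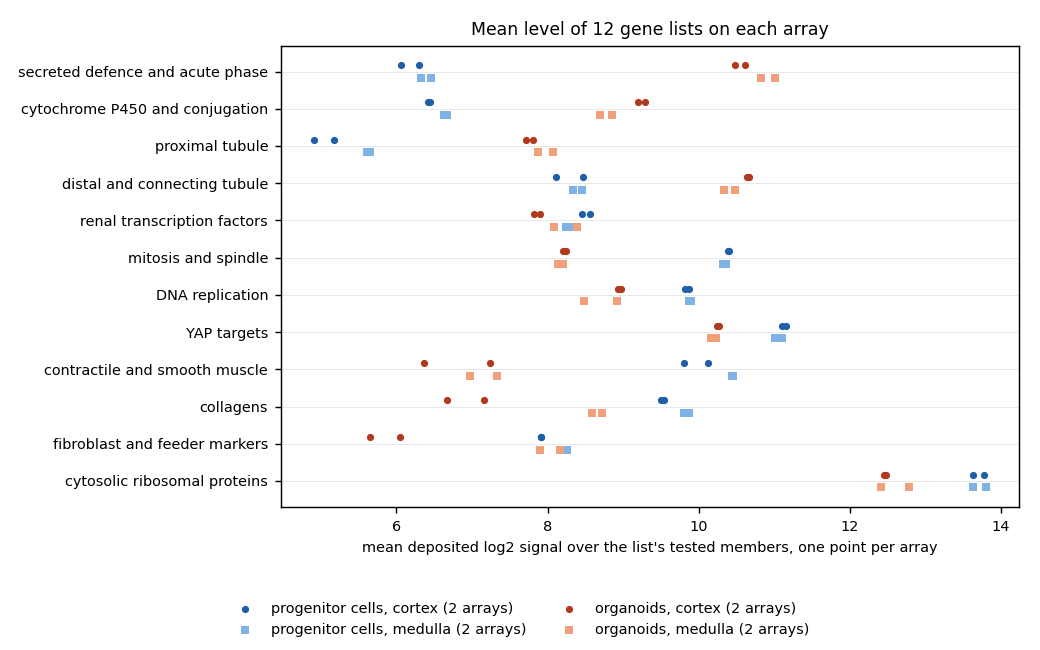
Mean deposited log2 signal (x axis) over the tested members of 12 gene lists (rows), 1 point for each of the 8 culture arrays. Progenitor (blue) and organoid (red) arrays separate for secreted defence, mitosis and ribosomal protein genes, while fibroblast and feeder genes are low in cortex organoids alone. Of 29 tested secreted defence genes 18 were bright in organoids alone, so their separation follows in part from the filter.

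Signalling genes are given by pathway. The TGF-beta, Wnt, growth factor and semaphorin lists lay near the shares of all genes (29.9% up and 46.5% down), so their counts of rises and falls say little about these pathways as a whole. In the EGF receptor and MAPK feedback list, of 30 tested members, 7 rose and 18 fell, with a median of -0.56. Egfr itself had signals of 10.93, 11.06, 11.25 and 10.87 for progenitor cells against 7.33, 7.89, 8.0 and 8.36 for organoids, a difference of -3.05 ± 0.15, on 4 of 5 bright probe sets. The ligands Nrg1 (-2.17 ± 0.22), Tgfa (-1.44 ± 0.17) and Hbegf (-1.35 ± 0.13) and the feedback inhibitors Spry1 (-2.77 ± 0.21) and Dusp5 (-2.09 ± 0.16) fell, and the receptors Erbb4 (2.28 ± 0.38) and Fgfr2 (2.58 ± 0.13) rose. Immediate early genes had 24 tested members, of which 10 rose and 6 fell and a median of 0.28, or -0.077 after scaling to the array median. AP-1 members opposed each other. Junb had signals of 11.87, 11.84, 11.66 and 11.79 for progenitor cells against 7.74, 7.54, 6.92 and 6.95 for organoids, a difference of -4.37 ± 0.16, and Ier2 fell by 3.55 ± 0.17, while Fosb (2.35 ± 0.15) and the zinc finger factor Egr2 (3.74 ± 0.21) rose. Among growth factors and receptors of the PDGF, VEGF, HGF and related families, of 27 tested members, 7 rose and 13 fell, a median of -0.33. Besides Pdgfb and Vegfa, the stem cell factor Kitl fell by 2.32 ± 0.19, and Igfbp5, a binding protein of insulin-like growth factors, rose by 2.25 ± 0.30.

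Among Wnt genes, of 31 tested members, 11 rose and 16 fell, a median of -0.46, which was 0.0070 after quantile normalization. Of the tested members, 15 were bright in both stages, 5 in organoids alone and 11 in progenitor cells alone, and the median over those bright in both was 0.28, of the opposite sign. Wnt ligands of epithelia fell: Wnt7a had signals of 10.66, 10.58, 10.74 and 10.86 for progenitor cells against 5.84, 7.02, 5.14 and 4.51 for organoids, a difference of -4.66 ± 0.24, and Wnt10a (-4.25 ± 0.28) and Wnt7b (-3.47 ± 0.19) followed. The co-receptors Lrp5 (2.74 ± 0.17) and Lrp6 (2.17 ± 0.10) rose. Notch genes had 17 tested members, of which 4 rose and 10 fell and a median of -0.69, or -0.34 over the 12 bright in both stages. In organoids alone 1 was bright, and 4 in progenitor cells alone. The target gene Hey1 had signals of 5.51, 5.77, 5.95 and 5.30 for progenitor cells against 10.46, 10.65, 10.35 and 10.14 for organoids, a difference of 4.40 ± 0.20, whereas the glycosyltransferase Lfng (-2.73 ± 0.30) and the ligand Jag2 (-1.79 ± 0.35) fell; Dtx4 fell (-2.14 ± 0.26) with its probe sets divided. TGF-beta and BMP genes had 36 tested members, of which 12 rose and 18 fell and a median of -0.38. In 10 of the 36 the change differed between regions, against 4.76% of all genes. The ligands went apart, Tgfb2 up and Inhba, which encodes activin A, down. Inhba had signals of 11.21, 10.99, 11.44 and 11.39 for progenitor cells against 7.71, 7.54, 7.42 and 8.38 for organoids, a difference of -3.41 ± 0.37. Id4 rose (4.48 ± 0.15) on 3 of 3 bright probe sets and Id1 fell (-2.54 ± 0.12), and the inhibitory Smad6 (-3.25 ± 0.33) and Smad7 (-3.01 ± 0.20) fell. Semaphorins, plexins and ephrins had 35 tested members, of which 12 rose and 19 fell and a median of -0.44, or -0.29 over the 27 bright in both stages. In organoids alone 3 were bright, and 5 in progenitor cells alone. Secreted class 3 semaphorins Sema3e, Sema3f (-3.03 ± 0.43) and Sema3a (-2.34 ± 0.34) and the ephrin Efna4 (-3.32 ± 0.26) and the ephrin receptor Epha2 (-2.86 ± 0.17) fell, and membrane-bound Sema4a (2.52 ± 0.14) and Sema4b (2.46 ± 0.13) rose.

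The same comparison within each region gave similar counts in the main model, but not when arrays were weighted. In cortex cultures 7795 genes (66.1%) passed, with 2 arrays against 2, and in medulla cultures 7849 (66.6%). With the 8 culture arrays alone these counts were 7498 in cortex and 7517 in medulla cultures. With array weights they were 8849 in cortex and 6148 in medulla cultures, so their similarity depended on the model. Of all tested genes, 2436 rose in both regions and 3942 fell in both. In 59 genes the 2 regions passed in opposite directions, 37 of them up in cortex and down in medulla. Tested directly as the medulla change minus the cortex change, 561 genes (4.76%) differed, 224 upward (1.9%) and 337 downward (2.86%). This count changed with each array that was left out. The medulla organoid arrays differed the most from each other, with a median absolute log2 difference of 0.408, against 0.118 to 0.199 in the other culture groups. The count was 1673 and 2578 without the first and the second of them, 225 and 186 without the cortex organoid arrays, 119 without either cortex progenitor array and 157 and 133 without the medulla progenitor arrays. With array weights it was 217, and with the 8 culture arrays alone 295. Of the 59 genes, 51 also passed the test of the difference. Of the 290 named genes that passed over both regions, 272 passed in each region with the same sign. Aqp1, Avpr2, Cxcl12, Osr1, Pdgfra, Thy1 and Yap1 passed in cortex cultures alone, Cubn, Epcam, Esam, Pttg1, Sox9 and Zeb2 in medulla cultures alone, Eya1 and Lcn2 in neither, and Ackr3, Mgp and Nrn1 in opposite directions.

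The 4 largest differences in each direction are given among the genes whose regions passed in opposite directions. Ccl7, a monocyte chemokine of stromal cells, had signals of 6.99, 7.23, 7.51 and 7.72 for progenitor cells against 6.42, 4.54, 10.04 and 10.33 for organoids. Cortex organoids were the lowest and medulla organoids the highest of all 8 arrays, and the changes of -1.30 ± 0.41 and 2.48 ± 0.41 differed by 3.78 ± 0.58 (limma, adjusted p = 0.00536). Mgp, matrix Gla protein, had signals of 6.76, 6.82, 7.83 and 7.59 for progenitor cells against 5.45, 5.45, 10.32 and 10.13 for organoids, and its changes differed by 3.53 ± 0.35. Thbs2, a matricellular thrombospondin, had signals of 10.04, 9.99, 9.78 and 9.70 for progenitor cells against 8.12, 8.53, 11 and 11.31 for organoids, with changes of -1.64 ± 0.20 and 1.40 ± 0.20 on its brightest probe set; 1 of its 3 bright probe sets fell in both regions (-3.76 and -1.10). Nrn1, neuritin, changed by -2.18 ± 0.29 and 0.93 ± 0.29. Fibroblast markers moved with these genes by region, as given above, and their part in them was not tested. In the reverse direction Ackr3, a scavenging receptor of Cxcl12, had signals of 7.14, 7.17, 7.04 and 7.0 for progenitor cells against 8.91, 9.28, 5.37 and 6.10 for organoids, with changes of 1.83 ± 0.23 and -1.07 ± 0.23. Mycl (1.28 ± 0.50 and -1.52 ± 0.50) and Padi4, which converts arginine to citrulline (1.74 ± 0.33 and -1.18 ± 0.33), had changes of the same signs, although 1 of the 3 bright probe sets of Mycl had a medulla change of only -0.023. Adh7, an alcohol dehydrogenase that acts on retinol, had changes of 1.32 ± 0.46 and -1.60 ± 0.46, but its other bright probe set rose in both regions (3.06 and 1.32).

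**Figure D4:**
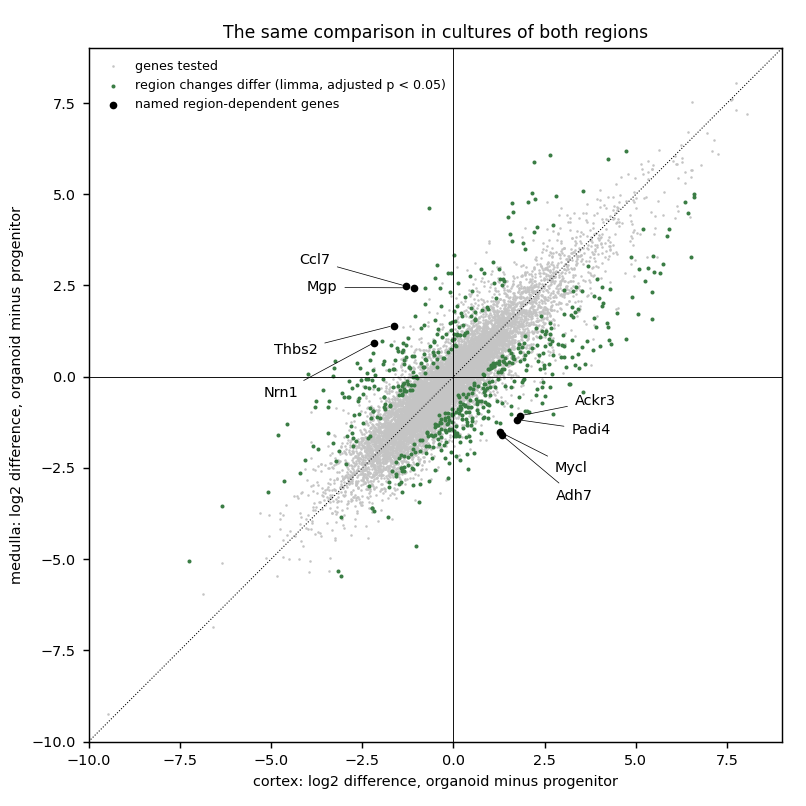
Log2 difference between organoids and progenitor cells in cortex cultures (x axis) and medulla cultures (y axis) for the 11790 genes tested (grey), with the 561 genes whose changes differed between regions in green and 8 named region-dependent genes in black. Most genes lie along the diagonal of equal change, and Ccl7, Mgp, Thbs2 and Nrn1 lie above it with a fall in cortex and a rise in medulla.

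Few genes could be shown to have closely similar levels in both stages. In 1063 genes (9.02%) the 95% interval of the mean log2 difference lay within 0.5 of 0. The median SE over all genes was 0.17 for the mean of both regions and 0.33 for the difference between regions. An interval can reach beyond 0.5 through its width alone, so the count does not give how many genes had similar levels.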

How the data were processed

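RNA from 12 mouse kidney samples was labelled with a 3' in vitro transcription kit and hybridised to 3' expression arrays, per the labels' protocols. The deposited values are log2 signals of the MAS5 algorithm, which is named in the submitters' processing notes, with a version not given in the sources used here; on every array the 2% trimmed mean of the unlogged signals was 500, checked on the deposited values. No detection calls were used here. Of 45101 probe sets, 34945 named 1 gene symbol, 932 named several and were not used, and 34741 were matched to a current RefSeq gene.

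The probe set brightest on average across the 12 arrays stood for its gene, on the scale log2(signal + 15.2). A model of 6 group means was fitted over all 12 arrays with limma 3.58.1 in R 4.3.3 (empirical Bayes with a variance trend, 6 residual degrees of freedom), tested on simulated data first. The mean organoid minus progenitor difference over both regions, the difference in each region and the difference between these were tested, with Benjamini-Hochberg adjustment over 11790 genes and a threshold of 0.05. Errors after ± are standard errors of this model. The labels do not say whether equal replicate numbers mark pairs, and the main model used no pairing. Deviations of same-numbered samples correlated with r from -0.149 to 0.0719, which cannot exclude a small effect of shared animals or cultures.

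Genes were named by rule. The rules took the 15 largest rises and falls with agreeing probe sets, no overlap between the stages and at least 1 log2 unit in each region. They also took up to 4 changed members of each gene list, fixed markers and the 4 largest region differences each way. A further 69 list members, such as Cdk1 and several claudins, were added after their values were seen. The members and lists were chosen with earlier results of these data known. Other scalings, offsets, brightness filters, probe set summaries and sets of arrays were tried. Promoters came from RefSeq (GRCm38.p6) for 9547 genes.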

Additional observations from a re-analysis of the deposited data

Results flagged for a closer look

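Among the 298 named genes that were tested, 38 had a change from progenitor cells to organoids that differed between medulla and cortex cultures. This was the test of the difference itself (limma, adjusted p from 0.000669 to 0.0473), which 4.76% of all genes passed. Ccl7, Mgp, Thbs2, Nrn1, Ackr3, Mycl, Padi4 and Adh7 were named by a rule that required passing it, so the count follows in part from the choice. Values are the medulla change minus the cortex change on the log2 scale. The change was higher in medulla cultures for genes of matrix and mesenchymal cells, namely Mgp (3.53), Col6a3 (3.20), Thbs2 (3.05), Thy1 (2.38), Vim (2.33), Cxcl12 (2.29), Cdh2 (2.18) and Col3a1 (1.94). It was also higher there for some tubule and podocyte genes, namely Tmem52b (3.66), Kcnj1 (2.75), Calb1 (2.62), Dach1 (2.15) and Anpep (1.46). The same held for Ccl7 (3.78), Nrn1 (3.11), Stmn2 (2.82), Chac1 (1.74), Sox17 (1.43), Pdk4 (1.42) and Cldn1 (1.23). A higher change can be a smaller fall, as for Cldn1 (-2.78 in cortex and -1.56 in medulla). It was higher in cortex cultures for the tubule gene Slc26a4 (-1.68) and the cilium gene Cys1 (-1.14). Genes of transport and metabolism of that direction were Adh7 (-2.92), Cyp1a1 (-2.33), Mgll (-1.96), Gpx3 (-1.63), Steap4 (-1.59) and Slc30a1 (-0.89). The others of that direction were Padi4 (-2.92), Ackr3 (-2.90), Mycl (-2.80), Cxcl14 (-2.68), Cenpn (-2.16), Psmb7 (-1.86), Tgfb2 (-1.56), Fgfr2 (-1.35), Sprr2f (-1.33) and Itga3 (-1.15). The 13 fibroblast and feeder markers also differed between cortex and medulla organoids, and the medulla organoid arrays differed more from each other than other replicates did. Their part in these values was not tested.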

How the results depend on the processing

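The count of 9012 changed genes stayed within 1.5 times under every scaling, offset, filter and set of arrays tried, from 6304 with a brightness filter at the 75th percentile to 10629 with none, and from 8487 to 9616 when 1 array was left out, with the lone array assumed to vary like those of other groups. Only 1634 genes had at least 2 bright probe sets that were all called the same way. After scaling to the array median 2513 genes rose and 6650 fell, and over the mean of all probe sets of a gene 3674 rose and 4223 fell; of the 8449 called genes that this mean measured, 6471 were called the same way and 577 the opposite way. With the replicate block the count was 8981 and that of genes differing between regions 447; no other count moved by over 1.5 times, and 1 named gene no longer passed. The 561 genes whose change differed between regions became 289 after median scaling, 356 over the mean of all probe sets, 295 with the 8 culture arrays only, 217 with array weights, and 119 to 2578 when 1 array was left out.

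Of the named genes, Npm1 (0.40), Cd24a (0.052) and Wfdc2 (0.014) reversed after quantile normalization and Yap1 (-0.053) after median scaling. Over the mean of all probe sets Ift80 (-0.52), Pde10a (0.30), Adm (-0.0059), Msmo1 (0.24), Atg16l1 (0.37), Psmd7 (0.35), Cd24a (0.17), Adh7 (1.0) and Ahr (1.24) did. The cause was not tested. No named gene reversed under the other alternatives. The 2 arrays a group, dim signals below the filter and the low poly-A controls of the organoid arrays limit what these values can resolve.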
